A study of Mus musculus with 605 samples.

Results

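The 10 genes described here serve as regulators or markers of hair follicle bulge stem cells, and were read in single cells of mouse dorsal skin: Cd34, Lgr5, Sox9, Lhx2, Tcf7l1, Nfatc1, Foxc1, Runx1, Trp63 and Tgm5. They were taken as a list by name, with earlier results of these data known. They are 10 of the 30957 genes measured, and each was matched to 1 gene identifier. Their values were read in 3 groups of bulge stem cells, with melanocytes and myeloid cells as the outgroup. The value for each gene in each cell is TPM (an abundance adjusted for transcript length and for the cell's total), and a TPM of 1 or above was taken as detection. Summed over the genes given, TPM was not the same in every cell.

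The bulge is the niche in the outer root sheath of the hair follicle where its stem cells rest between cycles of hair growth. Follicles pass through growth (anagen), regression and rest (telogen), and bulge stem cells stay quiescent for most of this cycle, with NFATc1, FOXC1 and BMP signalling known to hold them there. CD34 marks mouse bulge stem cells at the surface, SOX9, LHX2 and TCF3 (the product of Tcf7l1) maintain their identity, RUNX1 is tied to their activation, and p63 (the product of Trp63) is the master factor of all basal keratinocytes. In resting follicles the outer layer of the bulge holds the stem cells, and the inner layer, keratin 6 positive, holds differentiated keratinocytes that feed quiescence signals back to them.

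The bulge cells came from WT mice at postnatal day 30 (P30, anagen per the study), WT mice at P56 (telogen) and mutant mice at P56. Per the study, control bulge cells came from K14-H2B-GFP mice, with a nuclear green reporter driven by the keratin 14 promoter, and mutant bulge cells from mice with that reporter and Tyr-Nras Q61K. That transgene puts activated Nras under the tyrosinase promoter, which is active in melanocytes, and mutant skin held a mixture of anagen and telogen follicles. Bulge cells were sorted by GFP, CD34 and low P-cadherin, so CD34 protein chose the cells in which Cd34 RNA was then measured. After the filters 84 of 91 WT P30, 83 of 92 WT P56 and 89 of 94 mutant bulge cells remained, 256 of 277 in all. The outgroup held 81 WT and 84 mutant melanocytes and 73 WT and 72 mutant myeloid cells, all at P56, and the labels give these and the bulge cells only as WT or Mut.

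No label gives the animal a cell came from. Each group was therefore treated as a single sample without a test against the others, and genotype and age cannot be told apart from the plate that carried each group. SDs are over cells, and the 95% intervals of shares (exact, Clopper-Pearson) take in only the error of counting cells. Where a gene or set was found in 0 cells, the limit given is 3 cells of the total, which lies a little under the upper end of that interval. Read depth is unknown; the median number of genes above 0 per cell was 3191.5 in WT P30, 4271 in WT P56 and 4425 in mutant bulge cells. At least 2 of 6 keratinocyte markers (Krt5, Krt14, Krt15, Cdh1, Epcam, Itga6) were detected in 83 of 84, 83 of 83 and 89 of 89 bulge cells. The same kind of check put melanocyte markers in 80 of 81 and 82 of 84 melanocytes and myeloid markers in 73 of 73 and 70 of 72 myeloid cells. However, 13 WT and 45 mutant melanocytes also had at least 2 keratinocyte markers. Of these markers Cdh1 was in 50.6% of WT and 60.7% of mutant melanocytes, so for those cells any other marker of the list was enough. In bulge cells at least 2 melanocyte markers were found in 0, 7 and 3 cells (WT P30, WT P56, mutant), myeloid in 3, 15 and 15, fibroblast in 8, 8 and 4, T cell in 0, 2 and 0, and endothelial or mast cell in none. Within the follicle and epidermis, at least 2 markers were found in 32, 33 and 17 cells for interfollicular or differentiating cells, in 29, 38 and 31 for the upper follicle and in 6, 6 and 16 for sebaceous cells.

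Mutant bulge cells had more Cd34 RNA than either WT group. Cd34 (chromosome 1, 194938819 to 194961279, + strand, GRCm38) was at 17.1 TPM ± 70.8 (SD, 84 cells) in WT P30, 8.07 ± 27.8 (83 cells) in WT P56 and 88.9 ± 173 (89 cells) in mutant cells. The median cell was at 0 in every group, and the highest cells reached 577, 139.6 and 1110.2 TPM. Only 10 of 84 WT P30 cells (11.9%, interval 5.86 to 20.8%) and 8 of 83 WT P56 cells (9.64%, 4.25 to 18.1%) had the transcript, although all had passed a sort on the protein, against 41 of 89 mutant cells (46.1%, 35.4 to 56.96%). Where it was detected, the median was 98.5, 78.1 and 139.9 TPM, so the groups differed more in how many cells had Cd34 than in how much such a cell held. The mutant share differed within the plate, at 35.6% of cells from plate rows A to D and 56.8% from rows E to H.

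Lgr5, a receptor for R-spondins that amplifies WNT signalling and marks cycling and resting follicle stem cells, was lowest in WT P30, higher in WT P56 and highest in mutant cells. The gene lies on chromosome 10, 115450311 to 115587780, − strand. It was detected in 8 of 84 cells (9.52%), 35 of 83 (42.2%, 31.4 to 53.5%) and 72 of 89 (80.9%, 71.2 to 88.5%). The mean level was 9.53 ± 44.99, 56.2 ± 98.1 and 101.6 ± 97.7 TPM, with highest cells at 297, 502 and 453. The mutant median was 82.6 TPM while both WT medians were 0. Among cells with the transcript, the WT P56 and mutant medians lay close together, and the 3 medians were 48.8, 104.5 and 98.1 TPM.

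The 3 factors of bulge identity did not move together. Sox9 (chromosome 11, 112782224 to 112787760, + strand) was found in 44.05%, 43.4% and 38.2% of WT P30, WT P56 and mutant cells, 37, 36 and 34 cells, and these intervals overlapped. Its mean nevertheless went from 54.5 ± 86.1 to 40.6 ± 77.5 and 26.2 ± 49.4 TPM, and the median in Sox9 cells from 113.4 to 58.5 and 38.8 TPM. Lhx2 (chromosome 2, 38339281 to 38369733, + strand) was found in 22 of 84 (26.2%) and 23 of 83 (27.7%) WT cells and in 56 of 89 mutant cells (62.9%). For Lhx2, the means of WT P56 and mutant cells were close, at 27.9 ± 61.6 and 29.1 ± 41.4 TPM, because the fewer WT cells held more of it (median 87.4 against 32.7 TPM where detected). Tcf7l1 (chromosome 6, 72626378 to 72789254, − strand), a WNT pathway repressor, was at 4.34 and 1.43 TPM in the WT groups, in 13 of 84 and 4 of 83 cells, and at 14.9 ± 30.7 TPM in 34 of 89 mutant cells (38.2%). Within the mutant plate, Tcf7l1 was in 24.4% of cells from rows A to D and 52.3% from rows E to H, and Lhx2 in 53.3% and 72.7%.

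Of the quiescence factors, Nfatc1 was less frequent in the other bulge groups than in WT P56, and Foxc1 was infrequent in every bulge group. The study named Nfatc1 and Tgm5 among the genes of a cluster specific to WT P56 in these same cells. A peak of either gene in WT P56 is therefore not independent evidence. Nfatc1 (chromosome 18, 80606205 to 80713071, − strand), the calcineurin-regulated factor that keeps bulge stem cells at rest, was at 5.39 TPM in WT P30, 33.8 ± 49.1 in WT P56 and 4.83 ± 18.5 in mutant cells. It was detected in 13 of 84 (15.5%), 46 of 83 (55.4%) and 9 of 89 cells (10.1%), with highest cells of 89.8, 194 and 110.4 TPM. Foxc1 (chromosome 13, 31806633 to 31812476, + strand), a forkhead factor of the same quiescence programme, was near the limit of detection everywhere: 2, 8 and 1 cells, with means of 0.71, 0.95 and 0.03 TPM. Foxc1 was in 8 of 83 WT P56 cells (9.64%), and it passed the detection filter in none of the 3 comparisons. In its separate bulk RNA-seq, the study reported both Nfatc1 and Foxc1 as lower in mutant than in WT bulge cells at P56.

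Runx1 (chromosome 16, 92601466 to 92826149, − strand) was detected in 15 of 84 WT P30 cells (17.9%) and in 45 of 83 WT P56 (54.2%) and 51 of 89 mutant cells (57.3%). The intervals of the P56 shares overlapped, while the mean was 30.6 ± 47.2 TPM in WT P56 and 16.7 ± 23.2 in mutant cells. Trp63 (chromosome 16, 25683763 to 25892102, + strand) was the most widely detected member in each bulge group, in 72 of 84, 81 of 83 and 87 of 89 cells. Its median cell was at 109, 186 and 177 TPM, and its mean was 122.9 ± 99.99, 223 ± 166 and 217 ± 143.

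Tgm5 (chromosome 2, 121046111 to 121085841, − strand), a transglutaminase best known for cross-linking proteins of the cornified layer of epidermis, was frequent in WT P56 and nearly missing in the other groups. It was detected in 2 of 84 WT P30 cells (2.38%), 31 of 83 WT P56 cells (37.3%) and 2 of 89 mutant cells (2.25%). The WT P56 mean was 95.4 ± 186 TPM with a highest cell of 963 TPM, against 3.61 and 2.11 TPM in the other groups. In the 31 positive WT P56 cells the median was 169 TPM, below only that of Trp63 (189 TPM).

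**Figure D1:**
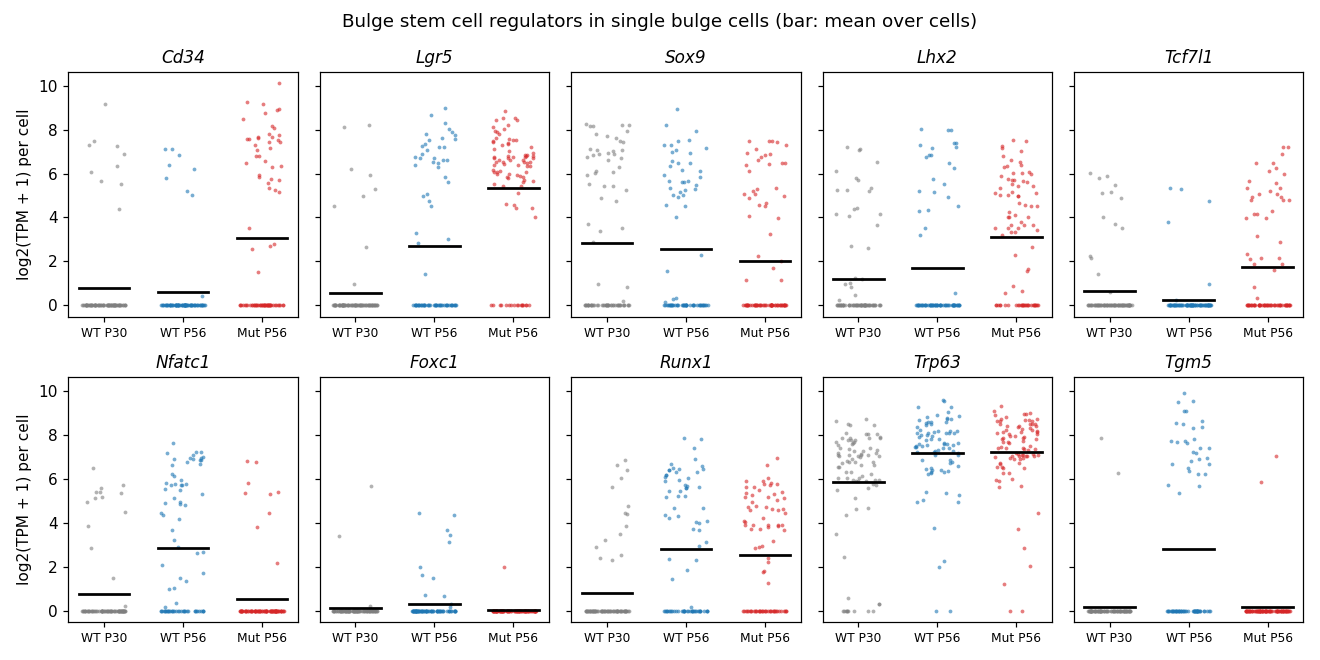
Each point is 1 cell, TPM of a member on a log2(TPM + 1) axis, for the 3 bulge groups. Nearly all cells hold Trp63, Lgr5 fills from WT P30 through WT P56 to mutant cells, and Tgm5 is seen in 31 WT P56 cells but in 2 cells of each other group.

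**Figure D2:**
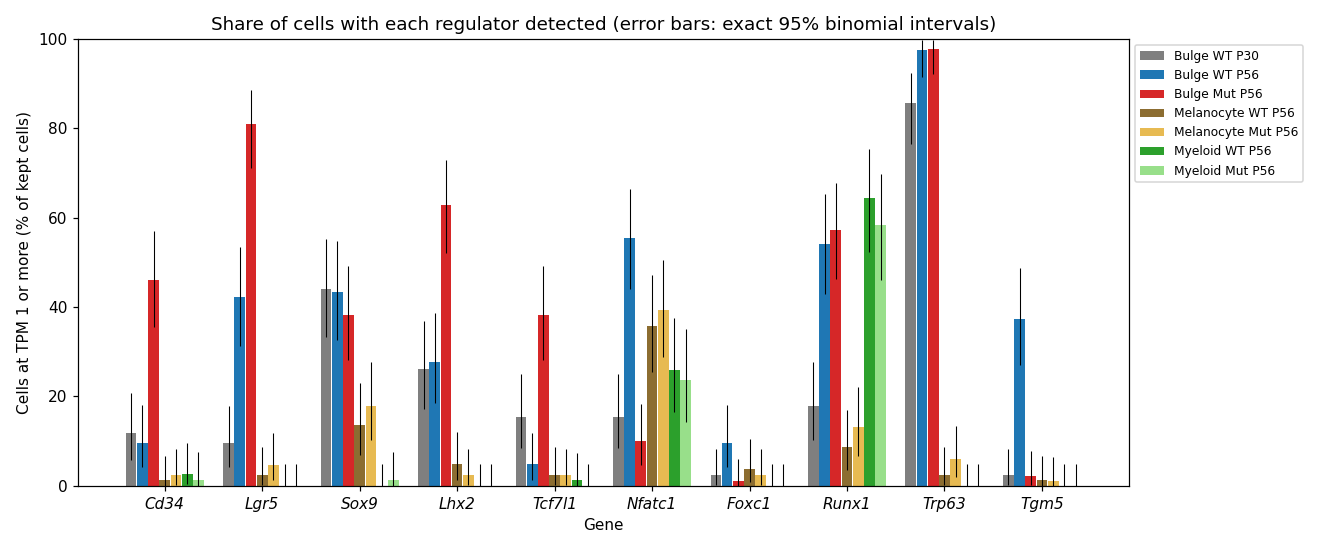
Share of cells (%) with each member at TPM 1 or more in all 7 groups, with exact 95% intervals for counting error. Cd34 in mutant bulge cells (46.1%) lies above the intervals of both WT groups, and Runx1 in myeloid cells (64.4 and 58.3%) is as common as in P56 bulge cells.

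The sequences just upstream of Cd34, Lhx2 and Tgm5 are shown because these genes had contrasts between mutant and WT P56 cells in opposite directions. They come from RefSeq on GRCm38.p6, which gave an entry for 6 of the 10 members. Each line runs 5′ to 3′ on the gene's own strand up to the base before the start, with matches to the motifs below in capitals. Cd34 is chr1:194938571-194938818 (+), Lhx2 chr2:38339031-38339280 (+) and Tgm5 chr2:121085842-121086091 (−).
Cd34: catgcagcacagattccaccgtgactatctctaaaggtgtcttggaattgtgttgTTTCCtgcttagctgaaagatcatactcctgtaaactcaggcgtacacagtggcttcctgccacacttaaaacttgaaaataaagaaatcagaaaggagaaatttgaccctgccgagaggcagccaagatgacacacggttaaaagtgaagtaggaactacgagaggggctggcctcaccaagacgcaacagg
Lhx2: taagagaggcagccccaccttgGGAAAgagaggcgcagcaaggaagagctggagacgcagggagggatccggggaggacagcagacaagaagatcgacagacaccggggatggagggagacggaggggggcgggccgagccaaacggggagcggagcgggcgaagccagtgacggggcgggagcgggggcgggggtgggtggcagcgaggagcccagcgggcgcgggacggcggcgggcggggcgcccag
Tgm5: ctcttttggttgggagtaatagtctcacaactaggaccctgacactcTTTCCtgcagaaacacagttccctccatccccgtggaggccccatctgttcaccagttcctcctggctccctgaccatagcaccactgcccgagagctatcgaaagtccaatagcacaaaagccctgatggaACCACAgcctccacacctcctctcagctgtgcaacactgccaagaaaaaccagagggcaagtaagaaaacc
The 6 motifs bound by the families of the members, searched on both strands, were GGAAA (NFAT), TGTGGT (RUNX), CTTTGA (TCF/LEF), AACAAT (SOX), TAATTA (LIM homeobox) and TAAACA (forkhead). Cd34 held 1 NFAT match, read as TTTCC, 193 bases upstream of the start. Lhx2 held 1 NFAT match 228 bases upstream. Tgm5 held an NFAT match 203 bases upstream and a RUNX match, ACCACA, 71 bases upstream. Of 32807 upstream windows, 55.6% held the NFAT letters, 14.04% the RUNX, 13.8% the TCF/LEF, 9.43% the SOX, 4.85% the LIM homeobox and 12.03% the forkhead letters, and a match is a description of the letters only.

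Most members were infrequent in the outgroup, with Nfatc1 and Runx1 as the exceptions. Trp63 was in 0 of 73 WT and 0 of 72 mutant myeloid cells, for which 3 cells of the total are 4.11% and 4.17%. In melanocytes it was in 2.47% and 5.95% of cells; these 2 WT and 5 mutant melanocytes were among the 13 and 45 with at least 2 keratinocyte markers, and 0 of 68 and 0 of 39 other melanocytes had it. Nfatc1 was not confined to the bulge: it was detected in 35.8% of WT and 39.3% of mutant melanocytes (mean 56.5 and 32.9 TPM) and in 26.03% and 23.6% of myeloid cells. Without the melanocytes that held keratinocyte markers, Nfatc1 was still in 22 of 68 and 17 of 39 cells. Runx1 was in 64.4% and 58.3% of myeloid cells, as high a share as in any bulge group, and in 8.64% and 13.1% of melanocytes. Sox9 was in 13.6% and 17.9% of melanocytes. Cd34, Lgr5, Lhx2, Tcf7l1, Foxc1 and Tgm5 were each in 4.94% or fewer of the cells of every outgroup.

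Mutant and WT bulge cells of the same age were compared by the difference of group means of log2(TPM + 1), where 1 or more either way counts as past the limit and a gene had to be detected in at least 10% of cells of either group. Past the limit, mutant cells were higher in Cd34 by 2.48, Lgr5 by 2.67, Lhx2 by 1.44 and Tcf7l1 by 1.51, and lower in Nfatc1 (−2.32) and Tgm5 (−2.66). These are 4 and 2 of the 10 members, 9 of which passed the filter, where 11.6% of all 10665 genes tested were higher and 8.08% lower. Sox9 (−0.57), Runx1 (−0.28) and Trp63 (0.01) were within the limit. All genes had a median of 0.12, and less that median the same 6 members were past the limit, with 9.42% of genes higher and 9.85% lower. In ratios of mean TPM, mutant cells held 11.01-fold the Cd34, 10.4-fold the Tcf7l1 and 1.81-fold the Lgr5 of WT P56 cells, 0.143-fold the Nfatc1 and 0.0221-fold the Tgm5, while for Lhx2 the ratio was 1.04. Thus Lhx2 passed the limit through its share of cells and not through its mean level. With an offset of 10 TPM in place of 1, Lhx2 (0.49) and Tcf7l1 (0.63) were within the limit, and 3.36% of genes were higher and 2.58% lower. With plate rows A to D alone Lhx2 was at 0.54 and the other 5 members stayed past the limit; on a scale with an offset near 100 TPM no member passed, the widest being Tgm5 at −0.62, where 0.441% of genes were higher and 0.694% lower.

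WT P56 and WT P30 cells differ in age and in hair cycle stage. The 5 members higher at P56 were Tgm5 by 2.64, Lgr5 by 2.14, Nfatc1 by 2.10, Runx1 by 2.04 and Trp63 by 1.34. None was lower, and 24.9% of 9855 genes were higher and 2.44% lower. Cd34 (−0.18), Sox9 (−0.27), Tcf7l1 (−0.42) and Lhx2 (0.47) were within the limit. P30 cells had fewer genes detected, and the median over all genes was 0.53. Less that median, Trp63 was at 0.81 and no longer past the limit while the other 4 remained, with 10.2% of genes higher and 7.42% lower. With cells weighted to the same spread of genes detected, the 5 members were again past the limit, with 13.1% of genes higher and 10.5% lower, but only 34 cells were in common.

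Mutant P56 and WT P30 cells were further apart in Lgr5 than in any other member, by 4.81. Cd34 (2.30), Lhx2 (1.90), Runx1 (1.77), Trp63 (1.35) and Tcf7l1 (1.09) were also higher, making 6 members where 30.2% of 10164 genes were higher and 3.05% lower; Sox9 was at −0.84 and Nfatc1 at −0.22. Less the median of all genes, 0.62, Trp63 (0.73) and Tcf7l1 (0.47) fell within the limit and Sox9 was past it at −1.46, with 12.2% of genes higher and 8.26% lower. The 3 comparisons share their cells in pairs, so they are not independent of each other. Side by side and over all kept cells, Nfatc1 and Tgm5 were at a peak in WT P56 and low in both other groups, a peak already named by the study. Nfatc1 was not low in the mutant cells with inner bulge markers, which are read apart below. Cd34, Lgr5 and Lhx2 were higher, past the limit, in mutant cells than in either WT group. Tcf7l1 was too before the all-gene median was taken off. Runx1 and, before the same step, Trp63 were past the limit in both P56 groups against WT P30.

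**Figure D3:**
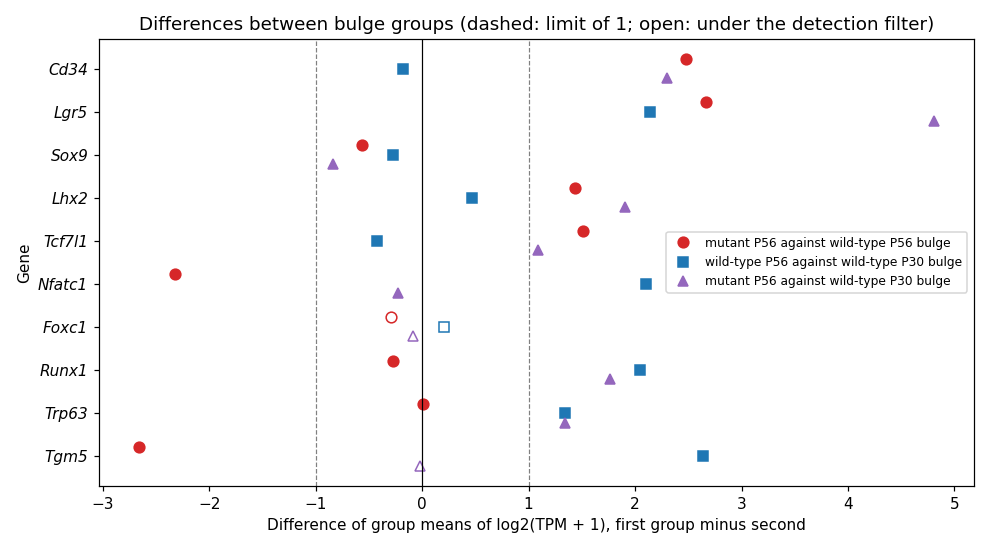
Difference of group means of log2(TPM + 1), first group minus second, for each member in 3 comparisons, with dashed lines at the limit of 1 and open symbols for genes under the detection filter. Nfatc1 and Tgm5 lie on opposite sides in the mutant and WT P56 (−2.32, −2.66) and the WT P56 and P30 (2.10, 2.64) comparisons.

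Single cells carried more of the list in the P56 groups. Those cells also had more genes detected, with medians of 3191.5 in WT P30, 4271 in WT P56 and 4425 in mutant bulge cells. The median cell had 2 of the 10 members detected in WT P30 (range 0 to 7), 4 in WT P56 (1 to 8) and 5 in mutant cells (1 to 8), against 1 in each outgroup. At least 5 members were found in 8 of 84 cells (9.52%, 4.20 to 17.9%), 36 of 83 (43.4%, 32.5 to 54.7%) and 45 of 89 (50.6%, 39.8 to 61.3%). In melanocytes this share was 2.47% and 2.38%, and it was 0 of 73 and 0 of 72 in myeloid cells. Within a bulge group the number of members hardly followed the number of genes detected (r = −0.10, 0.05 and 0.04 over 84, 83 and 89 cells that share a plate). These r do not bear on the difference in genes detected between groups. The members behind these totals differed. Cells with Nfatc1, Runx1 and Tgm5 together numbered 1 in WT P30, 10 in WT P56 (12.05%) and 0 of 89 mutant cells, for which 3 cells are 3.37%. Cells with Cd34, Lgr5, Lhx2 and Tcf7l1 together numbered 1, 0 of 83 (3 cells are 3.61%) and 17 (19.1%). Both sets were put together after the values were seen.

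Co-detection was read for the 45 pairs of members from the number of cells with both, the number expected from the 2 shares, and phi (the correlation of presence and absence). Of these, 8 pairs had at least 5 expected cells in every bulge group. Sox9 and Runx1 had the highest mean phi of the 8: 14 WT P30 cells had both against 6.61 expected (phi 0.46), 33 WT P56 cells against 19.5 (0.66) and 25 mutant cells against 19.5 (0.26). In WT P56, 33 of the 36 Sox9 cells had Runx1. Sox9 and Lhx2 went together in WT P30, with 20 cells against 9.69 expected (phi 0.56), less so in WT P56 with 15 against 9.98 (0.27), and at the expected number in mutant cells, 21 against 21.4 (−0.02). The other 6 pairs join Trp63, present in nearly all cells, to Cd34, Lgr5, Sox9, Lhx2, Nfatc1 and Runx1, and had phi of at most 0.21 either way.

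Pairs outside that rule, picked after their values were seen, set Lgr5 cells apart from Nfatc1 cells in the mutant group. In WT P56 this was partial, since 14 of the 35 Lgr5 cells also had Nfatc1. In WT P56, Lgr5 and Tgm5 shared 27 cells against 13.1 expected (phi 0.70, the highest of any pair with 5 expected cells), and 27 of 31 Tgm5 cells had Lgr5 against 8 of 52 others. Lgr5 and Runx1 shared 32 cells against 18.98 expected there. Lgr5 and Nfatc1 shared 14 against 19.4 in WT P56 (phi −0.26) and 0 against 7.28 in mutant cells (phi −0.69), where none of the 9 Nfatc1 cells and 72 of the 80 others had Lgr5. Of the 41 mutant Cd34 cells, 40 had Lgr5, against 33.2 expected. With the expected numbers summed within 3 bins of cells by genes detected, as many pairs exceeded them in each group as without.

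**Figure D4:**
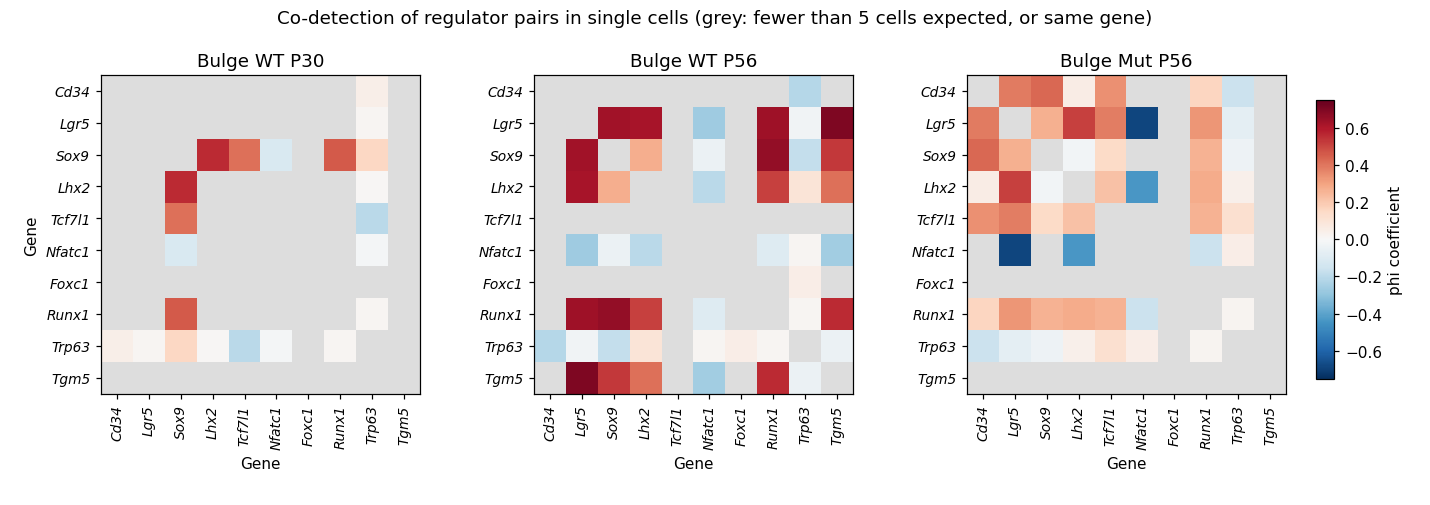
Each square gives phi for a pair of members in a bulge group, red for pairs found together more than their shares give and blue for less; grey squares had fewer than 5 expected cells. Lgr5 and Tgm5 in WT P56 (0.70) and Lgr5 and Nfatc1 in mutant cells (−0.69) are the extremes.

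The split between Lgr5 and Nfatc1 cells, sharp in mutant cells and partial in WT P56, followed the markers of the inner bulge layer. Krt6a, Krt80 and Chit1 are also markers the study used to name inner bulge cells in these data, and Lhx2 is among its outer bulge markers. Cells with at least 2 of Krt6a, Krt75, Krt80 and Chit1 numbered 32 of 84, 37 of 83 and 14 of 89. Krt6a was in 19, 6 and 10 cells, Krt75 in 5, 1 and 26, Krt80 in 45, 47 and 15, and Chit1 in 33, 39 and 12. In WT P56 the count of cells with at least 2 thus rests mostly on Krt80 and Chit1, and few of them held Krt6a RNA. This is a limit on a count and not a cell type, since 34, 15 and 32 cells had exactly 1 of these markers and 29, 33 and 11 exactly 2; and because Krt80 (−2.67) and Chit1 (−2.66) were lower and Krt75 (1.53) higher in mutant than in WT P56 cells, its size is not compared between groups. Cells with these inner markers had 1, 2 and 2 members in the median against 3, 5.5 and 5 in the others. At least 5 members were found in 0 of 32, 1 of 37 and 0 of 14 of them, and in 8 of 52 (15.4%), 35 of 46 (76.1%) and 45 of 75 (60%) of the others.

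Lgr5 was almost absent from cells with inner markers, in 0 of 32 WT P30, 2 of 37 WT P56 and 0 of 14 mutant cells, against 8 of 52 (15.4%), 33 of 46 (71.7%) and 72 of 75 (96.0%) of the others. Sox9 (4, 3 and 1 cells with inner markers against 33, 33 and 33), Lhx2 (1, 2 and 0 against 21, 21 and 56), Tcf7l1 (0, 1 and 0 against 13, 3 and 34) and Cd34 (1, 1 and 0 against 9, 7 and 41) were on the same side. So was Tgm5 in WT P56, with 3 cells against 28, and Runx1, with 8 of 37 against 37 of 46. Nfatc1 was not: in WT P56 it was in 26 of 37 cells with inner markers (70.3%) and 20 of 46 others (43.5%), and in mutant cells in 8 of 14 (57.1%) and 1 of 75 (1.33%). Trp63 was spread over both, in 28 of 32, 37 of 37 and 14 of 14 cells with inner markers.

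**Figure D5:**
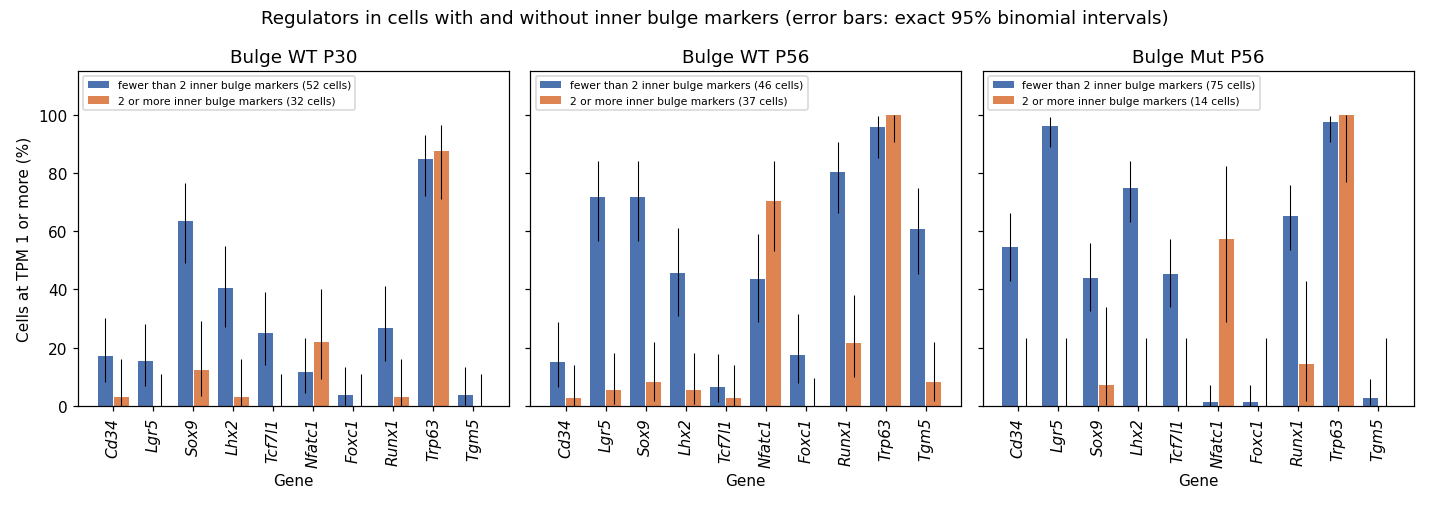
Share of cells (%) with each member at TPM 1 or more, in cells with fewer than 2 inner bulge markers (blue) and with 2 or more (orange), with exact 95% intervals for counting error. Lgr5 in mutant cells is at 96.0% in blue and 0 in orange, and Nfatc1 is higher in orange in each group. The 2 Nfatc1 intervals overlap in WT P30 and in WT P56 and lie apart in mutant cells.

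The mutant and WT P56 difference was read again in cells with fewer than 2 inner markers. Cd34 (2.69), Lgr5 (1.75) and Tcf7l1 (1.72) stayed higher in mutant cells and Nfatc1 (−2.29) and Tgm5 (−4.48) stayed lower. Lhx2 was within the limit at 0.91, and Sox9 (−1.97) and Runx1 (−1.51) were now past it on the lower side, where 17.9% of genes were higher and 7.69% lower. Some co-detection was no longer seen in these cells. Cd34 and Lgr5 had a phi of 0.09 in mutant cells instead of 0.39, Lgr5 and Lhx2 0.04 instead of 0.51, and Sox9 and Lhx2 −0.10 in WT P56 instead of 0.27. Lgr5 and Tgm5 kept a phi of 0.58 and Sox9 and Runx1 of 0.42 in WT P56.

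Immediate early genes moved with the mutant and WT P56 groups. All 10 of the list (Fos, Fosb, Jun, Junb, Egr1, Atf3, Ier2, Zfp36, Dusp1, Nr4a1) were lower in mutant cells, by a median of −6.04, and all 10 were higher in WT P56 than in WT P30, by 3.41; 7 of 10 were lower in mutant than in WT P30 cells. Fos was at 2904, 7907 and 1087 TPM in WT P30, WT P56 and mutant cells. They also differed by inner markers: the median cell's mean log2(TPM + 1) over the list was 10.4 in mutant cells with at least 2 inner markers and 3.06 in the others, but 10.4 and 9.95 in WT P56. Over 89 mutant cells Lgr5 had r = −0.62 and Nfatc1 r = 0.56 with that mean. Weighted to the same spread of it, with 23 cells in common, mutant and WT P56 cells differed in Cd34 by 0.96, in Lgr5 by 0.09, in Lhx2 by −0.02, in Tcf7l1 by 0.30 and in Nfatc1 by −0.79, none past the limit. Sox9 (−1.71), Runx1 (−1.95) and Tgm5 (−3.07) were past it on the lower side, where 12.6% of genes were higher and 4.31% lower. With the cells that had inner markers also left out, 10 cells were in common, and Cd34 (2.87), Lgr5 (2.43), Lhx2 (1.72), Tcf7l1 (1.02) and Trp63 (1.85) were higher and Sox9, Nfatc1 (−1.66), Runx1 and Tgm5 lower, where 36.6% of genes were higher and 6.79% lower. Cycling markers (at least 2 of Top2a, Mki67, Cdk1, Birc5, Ccnb1, Aurkb) were in 5 of 84, 5 of 83 and 19 of 89 cells, and leaving those cells out kept the calls of all members in the mutant and WT P56 comparison.

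Relatives of the members gave a mixed picture. Of 27 listed, 19 passed the filter between mutant and WT P56 cells, 6 were higher and 3 lower, where 11.6% of all genes were higher and 8.08% lower, and the median was 0.39 against 0.12 for all genes. Lgr4, another R-spondin receptor, was higher by 2.68 (17.8 to 76.6 TPM), alongside Lgr5, while Lgr6, which marks the upper follicle, was lower by −1.42. The LIM-only factor Lmo4 (2.09), Tcf7l2 (1.62), Sox4 (1.33), Foxo1 (1.29) and Cbfb, the partner of RUNX proteins (1.04), were also higher. Tcf7l2 is among the outer bulge markers the study used in these same cells. Lef1, an activator of WNT targets, was lower (−1.80; 30 of 83 WT P56 and 5 of 89 mutant cells), as was Trp73 (−1.01). Against WT P30, 8 of 17 were higher in WT P56 and none lower (median 0.82 against 0.53), where 24.9% of all genes were higher and 2.44% lower. They were Lgr6 (2.07), Lef1 (1.99), Foxp1 (1.79), Lmo4 (1.62), Trp73 (1.53), Foxo3 (1.17), Sox21 (1.09) and Nfat5 (1.07). In mutant cells 10 of 17 were higher than in WT P30 and none lower (median 1.06 against 0.62), where 30.2% of all genes were higher and 3.05% lower. They were Lmo4 (3.70), Tcf7l2 (2.44), Lgr4 (2.17), Foxo1 (2.08), Foxp1 (2.003), Nfat5 (1.97), Trp53 (1.71), Cbfb (1.37), Sox4 (1.06) and Foxo3 (1.03).

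Among other bulge and quiescence genes, more were lower than higher in mutant against WT P56 cells. Of 25 listed, 22 passed, 11 were lower, 2 higher and 9 within the limit, where 8.08% of all genes were lower and 11.6% higher. The median was −0.90 against 0.12 for all genes. Some of these genes are ones the study chose as quiescence markers from the same cells, so their direction is not independent evidence. Lower were Bmp2, a quiescence signal (−3.54; 67.7 to 1.13 TPM), Col17a1, the hemidesmosome collagen that anchors stem cells (−2.95), Aqp3 (−1.99), Ctgf (−1.94), Itgb4 (−1.59), Id3 (−1.54), Wif1 (−1.43), Bmp4 (−1.32), Itga6 (−1.18), Id2 (−1.18) and Krt15 (−1.09). Higher were the basement membrane collagen Col18a1 (3.79; 30.0 to 191 TPM) and the vitamin D receptor Vdr (3.10; 89.3 to 438 TPM). Both are among the outer bulge markers the study used in these same cells. Their values here are over all kept cells, with and without inner markers. Against WT P30, 14 of 22 were higher in WT P56 and 1 lower (Postn, −1.52), with a median of 1.52 against 0.53, where 24.9% of all genes were higher and 2.44% lower. The 14 were Col17a1 (4.20), Id3 (3.34), Bmp2 (3.15), Id1 (3.15), Krt15 (2.99), Itgb4 (2.63), Vdr (2.31), Dkk3 (2.27), Id2 (2.05), Ctgf (1.93), Gas1 (1.59), Wif1 (1.44), Itga6 (1.10) and Col18a1 (1.02). In mutant cells 10 of 19 were higher than in WT P30 and 2 lower, with a median of 1.04 against 0.62, where 30.2% of all genes were higher and 3.05% lower. Higher were Vdr (5.40), Col18a1 (4.81), Id1 (2.49), Krt15 (1.89), Id3 (1.797), Cd200 (1.56), Dkk3 (1.55), Gas1 (1.39), Col17a1 (1.25) and Itgb4 (1.04), and lower were Postn (−1.21) and Aqp3 (−1.06).

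The genes put on a list of hair germ and activation genes did not share a direction, and whether each belongs there was not tested in these cells. Of 14 listed, 12 passed between mutant and WT P56 cells, with 3 higher, Ptch1 (1.79), Cdh3, the P-cadherin gene (1.64), and Sox4 (1.33), and 4 lower, Hopx (−3.00), Myc (−2.82), Lef1 (−1.80) and Gata3 (−1.12). The median was 0.68 against 0.12, where 11.6% of all genes were higher and 8.08% lower. In WT P56 against WT P30, 5 of 12 were higher, Cdh3 (2.39), Lef1 (1.99), Gata3 (1.94), Msx2 (1.62) and Myc (1.16), and 2 lower, Ccnd2 (−3.13) and Pthlh (−2.36), where 24.9% of all genes were higher and 2.44% lower. In mutant against WT P30 cells, 5 of 12 were higher, Cdh3 (4.04), Msx2 (2.397), Ptch1 (2.22), Gli1 (1.46) and Sox4 (1.06), and 4 lower, Hopx (−2.75), Ccnd2 (−2.25), Pthlh (−2.19) and Myc (−1.66), where 30.2% were higher and 3.05% lower. Cdh3 was at 14.7, 56.2 and 108.3 TPM over the 3 groups, although cells had been sorted for low P-cadherin.

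Detection in at least 10% of cells of each bulge group held for 5 members, which allowed a search over 6726 genes for those with the most similar values across cells (mean of the 3 within-group correlations of log2(TPM + 1) over 84, 83 and 89 cells, those of a group sharing a plate, with no test). Sox9 gave the closest: Sostdc1, a secreted BMP and WNT modulator (0.62), Fam132a (0.59), the adhesion molecule Alcam (0.58), Krt17 (0.57) and Bhlhe41 (0.57). For Lhx2 these were Gjb2 (0.41), Pdlim7 (0.41), Pxdn (0.40), Vdr (0.39) and Arl15 (0.39), and for Runx1 Maged1 (0.46), Vdr (0.44), Sox9 itself (0.42), Fgfr1 (0.40) and Hspg2 (0.40). Nfatc1 was closest to H2-Q6 (0.45), Fosl1 (0.45), Cxcl16 (0.44), Cdh13 (0.44) and Ovol1 (0.42), and Trp63 to Cxcl14 (0.41), Krt5 (0.39), Itgb4 (0.36), Mrfap1 (0.31) and Tpi1 (0.27). H2-Q6 belongs to a family of near-identical genes, so its reads are uncertain. All of these correlations were moderate or weak in sparse data, and 22 of the 25 genes were named again once the number of genes detected was taken out.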

How the data were processed

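Cells from 7 groups of mouse dorsal skin were measured singly. Per the study, they were caught in microfluidic chambers, chambers holding no cell or several were dropped by eye, and cDNA was made with the SMARTer kit (the labels name Smart-seq2). Doublets were not called here. The authors deposited TPM, with a column for each cell, after alignment with STAR (version 2.4.2 per the submitters' processing notes) to GRCm38 and quantification of GENCODE genes with RSEM. For these values the methods write FPKM, whereas the tables and the methods' own limits on single cells write TPM. Read depth cannot be had from TPM. Before the filters the median summed TPM per cell was 804368 in WT P30, 886165 in WT P56 and 902641 in mutant bulge cells.

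The 31002 identifiers gave 30957 symbols, and 40 symbols with several identifiers were averaged. A bulge cell needed a summed TPM of 750000, no more than 20% of it mitochondrial, and 2000 to 7000 genes above 0, as the methods state; melanocytes and myeloid cells needed 1000 genes. This left 566 of 605 cells. No cells had identical columns. A WT myeloid column without a label (1 in all) was left out, and the 77 mutant myeloid columns, which name no well, were used as a group only.

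With no animal named, a group is 1 sample and no p-value was computed. Differences are of group means of log2(TPM + 1), a scale that understates the change of genes with low values. Past the limit means 1 or more either way among genes at TPM 1 or more in at least 10% of cells of either group. The text names all 10 members, the genes of fixed lists past the limit, the pairs with the 5 highest or lowest mean phi and at least 5 expected cells in each bulge group, and the 5 genes most like each eligible member, leaving out mitochondrial, ribosomal, predicted, Y-linked and pseudogene entries and Xist. The members and lists were chosen with earlier results of these data known. Of the listed marker genes, 1 (Trac) had no row. Gene positions are from the GENCODE annotation of GRCm38. The scripts were tested on simulated data. Values were computed in pandas 2.3.3 and NumPy 2.4.6 under Python 3.11.15, intervals in SciPy 1.17.1, and figures in matplotlib 3.10.9. The alternatives were other detection limits, offsets, cell filters, wells, kinds of cell and weightings of cells.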

Additional observations from a re-analysis of the deposited data

How the results depend on the processing

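Each group is 1 sample, so leaving out replicates could not be done. No paired analysis was possible because each group is 1 sample. Of 540 differences under the alternatives, 465 kept their side of the limit, and those of them within it could still change sign. Another 52 were no longer past the limit and 14 were newly past it in the same direction. A further 2 went past it in the other direction, and 7 that had been past it changed direction. The cause was not tested. The number of members past the limit was 6, 5 and 6 (mutant against WT P56, WT P56 against WT P30, mutant against WT P30). With an offset of 10 TPM it was 4, 2 and 2. Of all genes tested there, 3.36, 6.21 and 8.33% were higher and 2.58, 1.06 and 1.45% lower. With TPM divided by the cell's total and multiplied by 10000 the number was 0, 0 and 0. Of all genes tested, 0.441, 0.751 and 0.728% were then higher and 0.694, 0.426 and 0.502% lower. Weighted by immediate early genes the number was 3 in mutant against WT P56, where 12.6% of genes were higher and 4.31% lower. Lhx2 turned to −0.0154 there. Alternatives chosen after seeing the data were the subtraction of the all-gene median, outgroups without cells with keratinocyte markers, only cells with 2 inner bulge markers, and leaving those out with immediate early weighting. The last left 3 members in WT P56 against WT P30, where 23.9% of genes were higher and 7.02% lower. With only inner marker cells 3, 4 and 4 members passed the filter and 1, 2 and 1 were past the limit. Of all genes tested there, 5.49, 31 and 27.1% were higher and 15.3, 2.66 and 6.34% lower. Cd34 (−0.15), Lgr5 (−0.30), Lhx2 (−0.32) and Tcf7l1 (−0.11) turned in mutant against WT P56. Cd34 (−0.23) and Lhx2 (−0.15) also turned in mutant against WT P30. All were under the filter, in 0 of 14 mutant, 1 or 2 of 37 WT P56 and, for the last pair, 1 of 32 WT P30 cells. These turns therefore rest on 1 or 2 WT cells for each gene. In the same inner marker cells, Nfatc1 went past the limit at 2.01 in mutant against WT P30, over 14 and 32 cells. Against WT P56 it was at −0.37, within the limit, and Trp63 was past it at −1.46. The share of cells with at least 5 members was 39.3% in mutant cells at a detection limit of TPM 10, and in WT P56 55% in plate rows A to D and 76.1% without inner marker cells; among only those cells it was 0, 2.70 and 0% in WT P30, WT P56 and mutant cells. Of pairs with at least 5 expected cells, the sign of phi stayed in 10 of 11, 21 of 23 and 22 of 25 at TPM 10 (WT P30, WT P56, mutant) and in 8 of 11, 23 of 23 and 24 of 25 at any TPM above 0.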
